A study of Mus musculus with 4 samples.

Results

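Chromosome 14 carried 2773 of the 74695 intervals in the merged list of open chromatin peaks (mm10), and all of them are described here. Open chromatin was read by ATAC-seq, in which the transposase Tn5 cuts and tags DNA where it is accessible. The 4 libraries came from macrophages sorted by flow cytometry from the brain parenchyma of mice. There were 2 libraries labelled MDM, for monocyte-derived macrophages, and 2 labelled YSM, an abbreviation that the labels do not spell out. All 4 carried the genotype label Ms4a3-Ai9 and the treatment label DR-3x, so neither separates the groups. Ms4a3 is active in the bone marrow progenitors of monocytes and granulocytes, and Ai9 is a reporter allele that turns cells red after Cre recombination. The labels do not say what DR-3x stands for or whether the libraries came from separate animals. The study deposited one list of peaks named for each population and for DESeq2, called the YSM list and the MDM list here. Over the genome, 1104 merged peaks (1.48%) were in the YSM list and 108 (0.145%) in the MDM list.

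The chromosome was chosen by its high share of YSM-listed peaks, so that share and everything counted from it is a description with no test. No value per library came with the lists, so no spread between replicates stands beside any count. Exact 95% binomial intervals cover counting error only, and neighbouring peaks are not independent of each other.

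A peak of open chromatin marks a stretch of DNA, often a promoter or an enhancer, where nucleosomes leave room for other proteins. The lists carry no fold change or threshold, so a listed peak is known only by the population its list is named for. Klf12 encodes a Krüppel-like zinc-finger factor that was described as a repressor of transcription. Rarb encodes the beta receptor for retinoic acid, and its own promoter holds a retinoic acid response element through which the hormone raises its transcription. Fhit is a very long gene that spans a common fragile site. The start of mouse chromosome 14 holds a large array of near-identical predicted genes, the family to which takusan, a synonym of 2610042L04Rik in RefSeq, belongs.

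The sequences printed here come from the promoter windows of the RefSeq table (GRCm38.p6, whose chromosomes are those of mm10). They are cut to bases before the transcript start given there, which can lie inside the longer annotated gene. The Rarb stretch is shown because a YSM-listed peak covered it whole. It lies on the minus strand at chr14:16575477-16575726, and its capitals mark the response element, a repeat of GTTCAC with 5 bases between the copies.
Rarb: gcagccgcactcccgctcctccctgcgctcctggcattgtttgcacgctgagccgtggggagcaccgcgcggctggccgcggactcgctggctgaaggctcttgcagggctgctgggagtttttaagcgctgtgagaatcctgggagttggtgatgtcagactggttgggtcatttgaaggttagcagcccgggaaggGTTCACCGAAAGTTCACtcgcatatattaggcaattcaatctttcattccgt

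The start given for Rarb in the promoter table, base 16575476, lies inside the annotated gene, whose 5′ end is base 17082331. The element began 52 bases before that start, at chr14:16575512-16575528. Searched on both strands as GTTCACNNNNNGTTCAC, it was found in 2 of 32815 distinct promoter windows (0.00609%), those of Rarb and of the predicted gene Gm41579. A match of letters is a description, not a bound site.

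The next stretches let a reader compare array promoters that were selected for holding the same run of 16 bases. Each is 56 bases long, and the capitals mark 16 bases found in all 6. They belong to 6 of the 8 array genes that had a YSM-listed peak on a promoter window.
2610042L04Rik, plus strand, chr14:4334513-4334568: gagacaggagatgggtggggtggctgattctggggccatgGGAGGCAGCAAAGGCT
Gm3239, plus strand, chr14:4649625-4649680: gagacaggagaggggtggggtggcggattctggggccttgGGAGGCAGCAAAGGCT
Gm3248, minus strand, chr14:5961826-5961881: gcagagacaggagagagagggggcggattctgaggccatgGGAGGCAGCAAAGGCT
Gm33933, minus strand, chr14:6605086-6605141: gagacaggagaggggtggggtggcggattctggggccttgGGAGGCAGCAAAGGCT
Gm3636, minus strand, chr14:6757175-6757230: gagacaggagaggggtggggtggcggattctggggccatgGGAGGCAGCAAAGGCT
Gm10406, minus strand, chr14:7027593-7027648: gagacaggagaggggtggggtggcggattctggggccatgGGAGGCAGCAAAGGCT

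Over the 15 pairs of these stretches, identity ran from 83.1% to 100%, with a median of 96.4%. The 16 bases in capitals count toward it, and genes without them were left out. High identity is thus in part a product of that selection, here and at the other positions below. The position was picked after the values were seen, as the one of 4 equally shared positions with the most copies inside a YSM-listed peak. Here 5 of 6 copies were inside one, against 3 of 6 at each of the other positions, so that number is a product of the choice. At the other positions the median identity was 92.9% or 94.6%.

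The YSM list held 81 chromosome 14 peaks, 2.92% of the chromosome's merged peaks (2.33 to 3.62%). On the other assembled chromosomes it held 1021 of 71856 (1.42%, 1.34 to 1.51%). The ratio of the shares was 2.06 (1.64 to 2.57, by a normal approximation on the log scale). Of the 81 peaks, 41.6 lay above the number that the other chromosomes' share would give. Chromosome 14 had the highest share of the 20 chromosomes, followed by chromosome 8 with 96 of 3653 (2.63%). The MDM list held 7 chromosome 14 peaks, or 0.252% (0.102 to 0.519%), and 101 of 71856 on the other assembled chromosomes. That share too was the highest of the 20 chromosomes, just above chromosome 10 with 10 of 4043 (0.247%). It rests on 7 peaks, and its interval is wide.

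Along the chromosome the YSM-listed peaks were spread over many bins, a few of which held several. Of 94 bins of 1 Mb with a merged peak, 34 held a YSM-listed one (36.2%), and on the other chromosomes that percentage ran from 5 to 37.8 with a median of 26.9. Among the 34, 17 bins held exactly 1 and 8 held 2. The remaining 9 bins held 48 of the 81. The bin starting at 100 Mb, that of Klf12, had 10 of its 14 merged peaks in the list. The bin starting at 6 Mb, inside the predicted-gene array, had 7 of 12. The bin starting at 7 Mb had 8 of 35, and all 8 were among the 14 merged peaks of that bin that lie in the array. The bin starting at 16 Mb, that of Rarb, had 5 of 18.

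The bins with the most merged peaks held few YSM-listed ones. The 10 bins with the most merged peaks held 778 of the chromosome's 2773 merged peaks and 6 of its 81 YSM-listed ones. No such count of another chromosome stands beside it. Of the 71 bins with at least 10 merged peaks, 46 had no YSM-listed peak. The MDM-listed peaks lay in 6 bins, and 1 bin, starting at 121 Mb, held peaks of both lists.

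**Figure D1:**
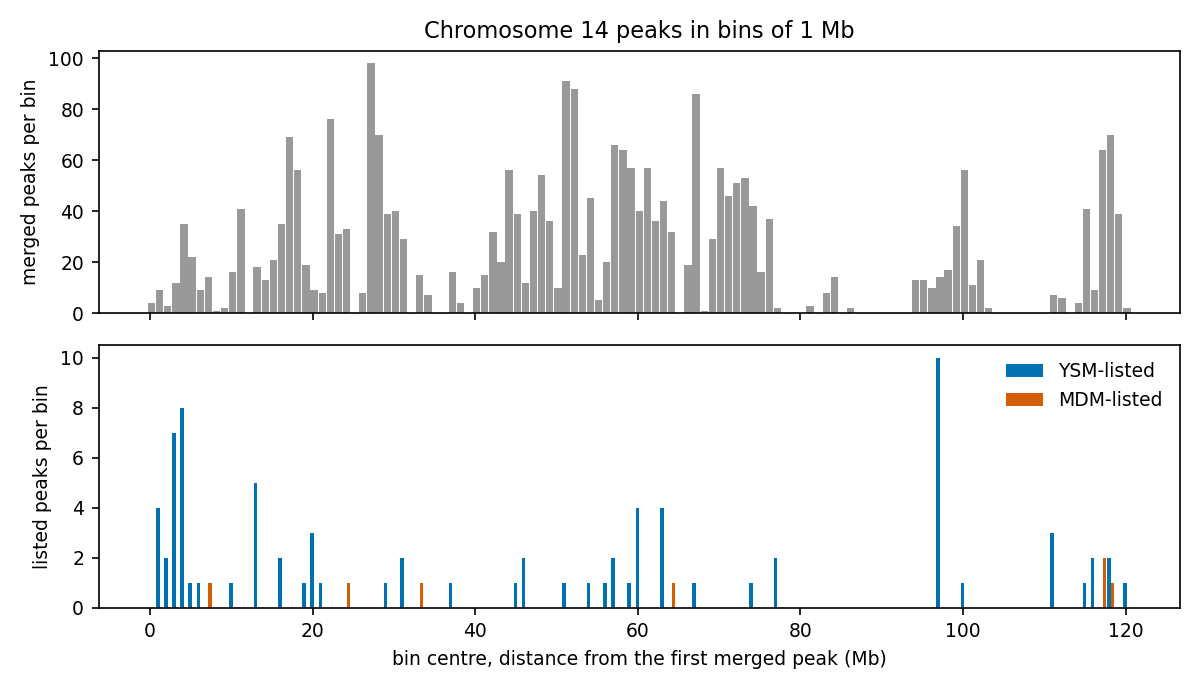
Merged peaks (upper panel) and listed peaks (lower panel, YSM blue, MDM orange drawn beside it) in each 1 Mb bin of chromosome 14, against the distance of the bin's centre from the first merged peak in Mb. The tallest blue bars, 10, 8 and 7 peaks, stand where the grey bars are low or of middling height.

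Leaving out the fullest bins one at a time lowered the share step by step. It fell from 2.92% to 2.57% without the Klf12 bin, and to 1.75% without the 5 fullest bins. It took 8 bins to bring the chromosome under the other chromosomes' 1.42%, at 1.39%. Chromosome 8 needed 5 bins and chromosomes 1, 6 and 18 needed 4. Without the array chromosome 14 also needed 4, and among peaks with at least 4 subpeaks it needed 1, with 11 YSM-listed peaks left. Any chromosome's share falls when its fullest bins are removed. The number of bins needed also depends on how high the share starts, and chromosome 14 was chosen for its high share. The 8 bins are thus a description and do not alone show how local the excess is. The 5 fullest bins of chromosome 14 held 34 of its 81 YSM-listed peaks (42.0%), and on the other chromosomes the 5 fullest held 30.7 to 100%, with a median of 40.4%.

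**Figure D2:**
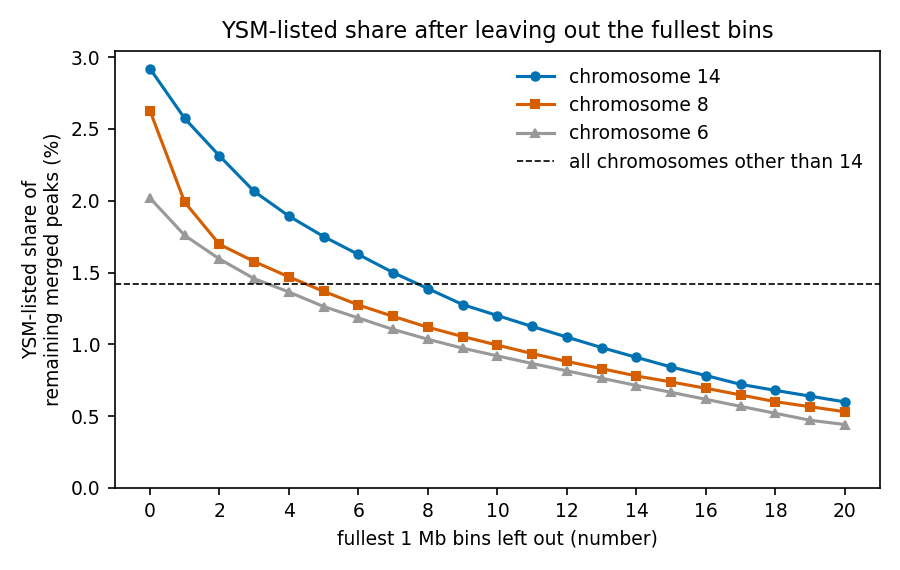
Share of the remaining merged peaks that were YSM-listed (%) after the bins with the most YSM-listed peaks were left out one by one, for chromosomes 14, 8 and 6. The dashed line is the 1.42% of all chromosomes other than 14, which the chromosome 14 line crosses at 8 bins.

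By place, the peaks above the other chromosomes' share divided unevenly. The array, whose merged peaks run from base 3332109 to base 7812840, accounted for 20.4 of the 41.6 (49.0%), Klf12 for 9.79 (23.5%) and Rarb for 4.90 (11.8%). All the remaining chromosome accounted for 6.51 (15.6%). Outside those 3 places 45 of 2709 merged peaks were YSM-listed, which is 1.66% (1.21 to 2.22%) and 1.17 times the other chromosomes' share. Cut into 4 parts of near-equal peak number, that remainder had 10, 8, 14 and 13 YSM-listed peaks from the start of the chromosome to its end. The array's bounds were drawn after its values were seen. All 3 places are rich in YSM-listed peaks, while the other chromosomes kept their richest places. A share nearer to theirs thus follows in part from the choice.

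In the array, 21 of 42 merged peaks were YSM-listed (50%, 34.2 to 65.8%) and none was MDM-listed. The stretch holds 71 protein-coding genes from its first to its last merged peak, of which 23 had a merged peak and 15 a YSM-listed one. Gm10044 had 3 of 5, at chr14:7749177-7749600, chr14:7749608-7749808 and chr14:7774072-7774293. Gm38418 had 3 of 4, at chr14:7658397-7658836, chr14:7662442-7662666 and chr14:7681293-7681569. Gm3248 had 2 of 3 and Gm33933 2 of 2. The peaks joined few library-level peaks: 40 of the 42 joined at most 3, and 15 of the 21 YSM-listed ones joined exactly 2. In the array 9 of the 21 YSM-listed peaks lay on a promoter window, and so did 7 of the 21 peaks in neither list.

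Most promoter windows of the array shared exact sequence with the window of another gene. Sharing was read on promoter windows only, so array peaks off a window were not compared. An exact stretch of 50 bases was shared with a window of another gene in 145 of 155 array windows (93.5%). It was shared in 124 of 1203 windows on the remainder of chromosome 14 (10.3%) and in 7.35% of windows on other chromosomes. Of the array peaks on a window, all 9 YSM-listed ones and all 7 in neither list were on one that shares such a stretch. None of the 6 YSM-listed peaks on a window elsewhere on the chromosome was. How reads matching several places were handled is not given in the sources used here, and its part in the array's counts was not tested. The array's genes are therefore uncertain as single loci.

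Klf12 (gene 16597, minus strand, 99866181 to 100285891) had 10 of its 15 merged peaks in the YSM list. The peaks formed 2 groups of 4 and 2 single members. At the 5′ end of the annotated gene stood 4 peaks, at chr14:100283428-100283628, chr14:100284484-100284684, chr14:100284795-100284995 and chr14:100285819-100286292. Their centres ran from 2363 bases inside the gene to 164 bases before it. The first 3 had 1 subpeak each, the number of library-level peaks joined into an interval, and the fourth had 4. A second group of 4 stood 61601 to 74585 bases into the gene, from chr14:100211104-100211508 with 4 subpeaks to chr14:100224144-100224437 with 4. One peak of 2 subpeaks lay between the groups at chr14:100260673-100260877, and one lay far downstream at chr14:100025924-100026163.

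The start that RefSeq's promoter table gives for Klf12, at base 100149796, had no listed peak near it. Of the 10 YSM-listed peaks, 9 lay 61510 to 136259 bases upstream of it. The 5 unlisted Klf12 peaks had 1 or 2 subpeaks. The 10 peaks made 7 separate sites when those within 1 kb were counted once, and 2 sites within 50 kb. Of the 12 genes set down for the Klf12 neighbourhood 10 had merged peaks. Those other than Klf12 had none listed. Dach1 had 20 merged peaks, Kctd12 14, Tbc1d4 13 and Klf5, another Krüppel-like factor, 1. At the chromosome's share of 2.92%, each of these neighbours alone would more often than not hold no listed peak. Whether the listed peaks stop at Klf12 was not tested.

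Rarb (gene 218772, minus strand, 16430839 to 17082331) had 5 of its 7 merged peaks in the YSM list. The peak on the printed promoter, chr14:16575416-16575774, had 2 subpeaks and its centre was 119 bases upstream of the gene's start in the promoter table. Upstream of it stood chr14:16598188-16598391 with 3 subpeaks. Downstream of that start stood chr14:16538271-16538502 and chr14:16457241-16457507 with 2 each and chr14:16478895-16479284 with 3. The 2 unlisted peaks also had 2 subpeaks each, so subpeak number did not set them apart. The other nuclear receptors with merged peaks on the chromosome, Thrb for thyroid hormone with 5 and Nr1d2 of the circadian clock with 4, had none listed. At the chromosome's share of 2.92%, so few peaks would more often than not hold no listed one.

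**Figure D3:**
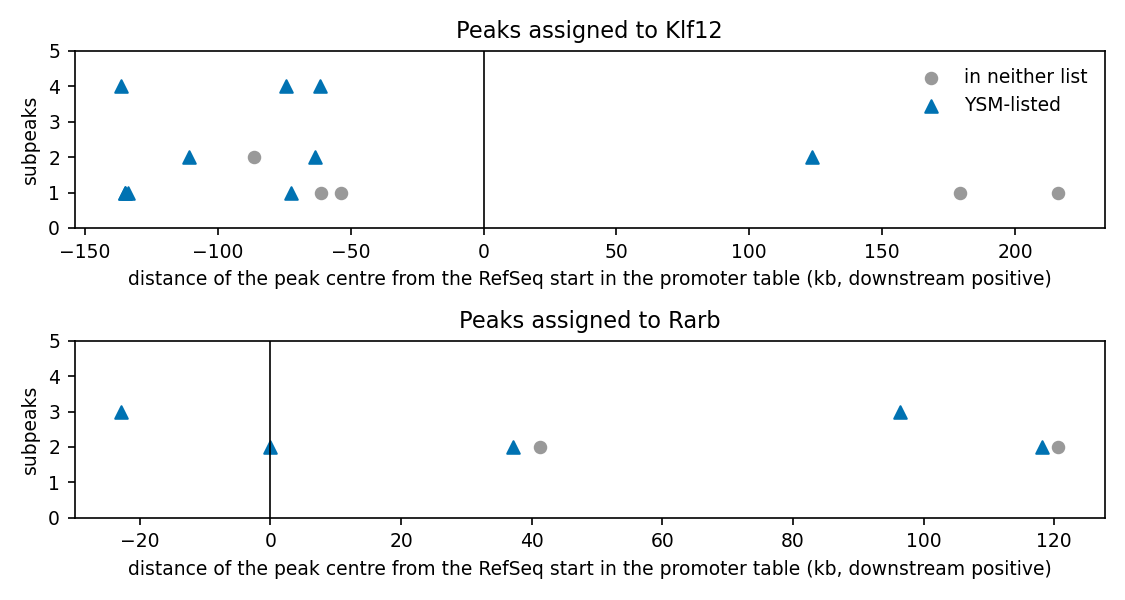
Number of subpeaks of each merged peak assigned to Klf12 (upper panel, 15 peaks) and Rarb (lower panel, 7 peaks) against the distance of its centre from the RefSeq start in kb, downstream positive. Blue triangles are YSM-listed and grey circles are in neither list; 1 Rarb triangle stands at the start, and no Klf12 peak does.

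Fhit (gene 14198, minus strand, 9550092 to 11162061) did not carry the excess. Of its 20 merged peaks 1 was YSM-listed, at chr14:9556058-9556258 with 1 subpeak, and 1 was MDM-listed, at chr14:10139448-10139777 with 5. It was the single gene of the chromosome with a peak in each list. Of 19 very long genes set down, 11 had merged peaks, and these had 8 of 144 in the YSM list (5.56%, against 2.92% of the whole chromosome). Kcnma1, a calcium-activated potassium channel, had 4 of 11. They lay at chr14:23772672-23773014, chr14:23825024-23825264, chr14:23839723-23839976 and chr14:24004694-24004943, with 2, 3, 2 and 2 subpeaks. Dock9, an activator of the small GTPase Cdc42, had 2 of 20, and Hs6st3, a heparan sulfate sulfotransferase, 1. Cacna1d, a voltage-gated calcium channel, had 42 merged peaks and none listed.

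Other genes had 1 or 2 listed peaks. Of 850 protein-coding genes on the chromosome 548 had a merged peak and 49 a YSM-listed one (8.94%), of which 36 had 1 and 13 had at least 2. Outside the array 34 genes had one and 9 had at least 2. Olfm4, a secreted olfactomedin protein, had both of its merged peaks listed, one centred 130 bases before its start at chr14:80000058-80000286 and one inside it at chr14:80018365-80018584. Bnip3l, a mitophagy receptor, had 2 of 6, and Blk, a Src-family kinase of B cells, 2 of 6. Atp8a2, a phospholipid flippase, had 2 of 11 and Pnma2 2 of 4. At the start of Bmpr1a, a type I receptor for bone morphogenetic proteins, chr14:34502572-34502949 covered 225 bases of the promoter window. At Uggt2, a folding sensor of glycoproteins, the listed peak covered the whole window.

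Of 30 genes of immune cells and phagocytes set down, 28 had merged peaks, and 3 of those had a YSM-listed one: Blk, Bnip3l and Tspan14, a tetraspanin. Together the 28 had 5 of 226 peaks in the list (2.21%), near the 2.92% of the whole chromosome and the 2.2% of the chromosome without the array. Zmiz1 had 44 merged peaks, Arhgap22 22 and Ptk2b, a focal adhesion family kinase, 16, with none listed. The granule protease and T cell genes had 9 merged peaks and the protocadherin and Slitrk genes 3, with none listed. At the chromosome's 2.92%, so few peaks would more often than not hold no listed one. The neuronal genes had 1 listed of 32 (3.1%, near the chromosome's 2.92%), at Synpr, a synaptic vesicle protein. In the list of bone morphogenetic protein and growth factor genes 2 had merged peaks, Bmpr1a with 1 of 7 listed and Spry2, a Sprouty inhibitor of receptor tyrosine kinase signalling, with none of 3. Their median share was 7.14%, and in the other lists the median share per gene was 0, as it was over all genes.

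**Figure D4:**
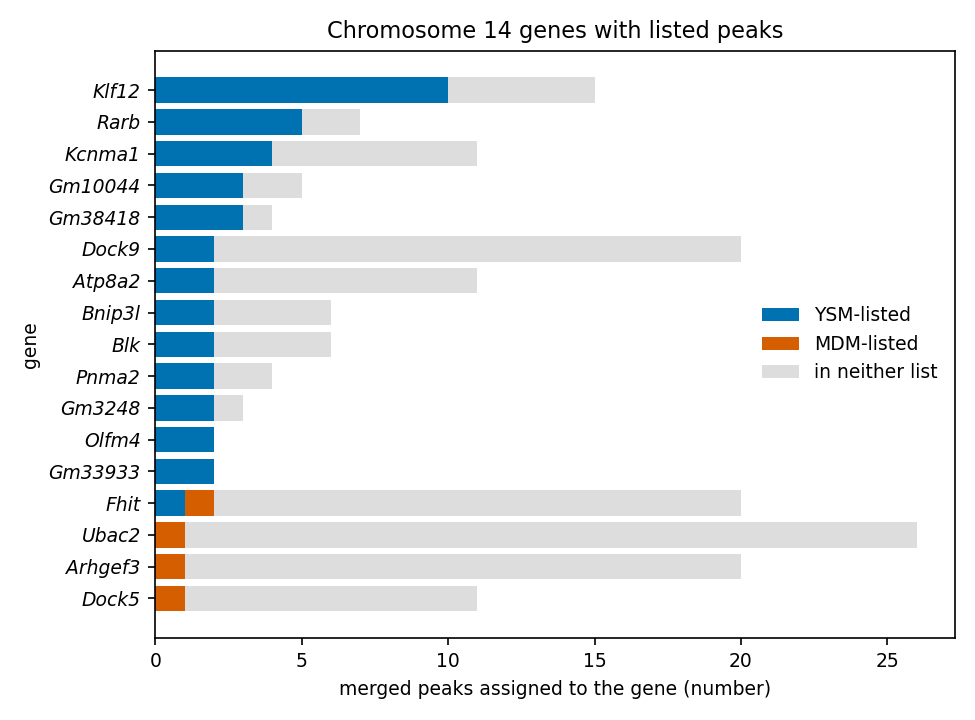
Merged peaks assigned to each chromosome 14 gene with at least 2 YSM-listed peaks or an MDM-listed one, divided into YSM-listed (blue), MDM-listed (orange) and neither (grey). Klf12 with 10 of 15 and Rarb with 5 of 7 have the longest blue bars, while Fhit has 1 YSM-listed and 1 MDM-listed peak among 20.

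Beyond 100000 bases of any coding gene lay 4 YSM-listed and 3 MDM-listed peaks. A trio of YSM-listed peaks lay at chr14:114865043-114865243, chr14:114869343-114869546 and chr14:114883739-114883968, with 1, 2 and 2 subpeaks. They were 208348 to 227058 bases from Gpc5, a glypican, and 159818 to 178528 bases from the Mir17 hairpin of the miR-17 cluster. The first was on the window of the long noncoding RNA Gm31003. The fourth, chr14:48820107-48820337, was 152578 bases from Otx2, a homeobox factor. Of the 3 MDM-listed ones, a pair lay side by side at chr14:120741305-120741591 and chr14:120741646-120741856 with 4 subpeaks each.

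The MDM-listed peaks were otherwise single. Arhgef3, an exchange factor for RhoA, had 1 of 20 at chr14:27186968-27187184, and Dock5, an activator of Rac, 1 of 11 at chr14:67884870-67885089. Near Ubac2, a ubiquitin-associated protein of the endoplasmic reticulum, 1 of 26 was listed, at chr14:121873155-121873539. Their subpeak numbers were 4, 4 and 5.

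The lists differed in subpeak number and overlapped at 4 and 5. The 81 YSM-listed peaks had a median of 2 subpeaks (1 to 5), and 70 of them (86.4%, 77.0 to 93.0%) had at most 3. On the other chromosomes 70.6% of YSM-listed peaks had at most 3. The 7 MDM-listed peaks had 4 or 5. Of the chromosome 14 peaks in neither list, 44.5% had at most 3.

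The excess sat in peaks of few subpeaks. A peak's subpeaks are counted over the same 4 libraries that the lists compare, so subpeak number depends on the accessibility behind the lists. The shares by class are therefore a description. Among chromosome 14 peaks with exactly 2 subpeaks 13.2% were YSM-listed, against 5.63% on the other chromosomes, and 9.55% without the array. With 3 subpeaks the shares were 4.41% and 2.48%, and with 1 they were 1.62% and 0.462%. With 4 to 6 they were 0.768% and 0.734%, and with 7 or more none of 75 was listed on chromosome 14, which allows a share of up to 4.8% (exact upper bound). Taking the other chromosomes' share within each subpeak class would give 41.0 listed peaks on chromosome 14, and within each class of place 41.8, against the 81 found.

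**Figure D5:**
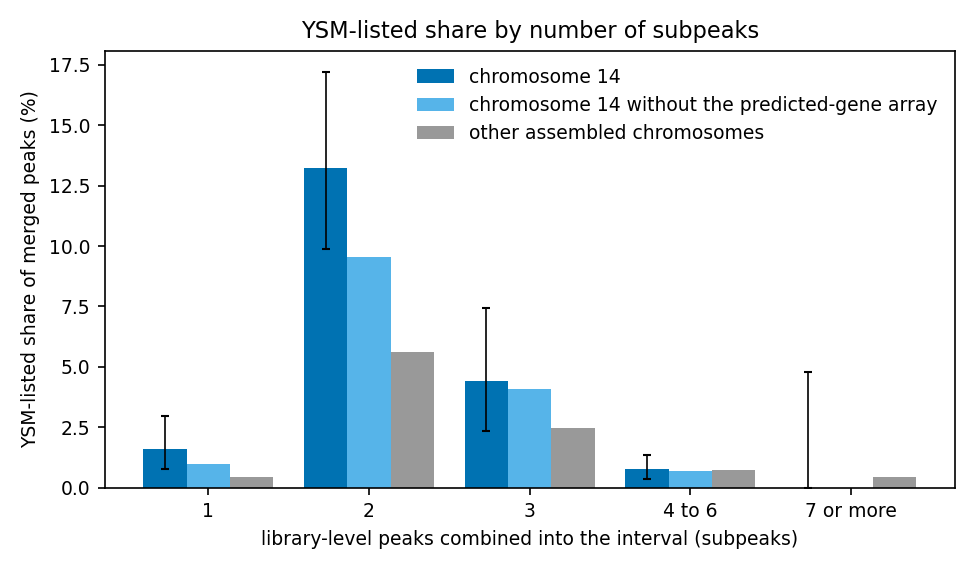
YSM-listed share of merged peaks (%) by number of subpeaks for chromosome 14, chromosome 14 without the predicted-gene array, and the other assembled chromosomes; bars on the chromosome 14 columns are exact 95% binomial intervals. The columns differ most at 2 subpeaks (13.2, 9.55 and 5.63%) and are close at 4 to 6.

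By place relative to genes, 44 of the 1382 peaks inside genes were YSM-listed (3.18%), against 1.71% on the other chromosomes. Within 1000 bases of a gene end it was 16 of 532 (3.01%) against 0.683%, and 9 of 518 (1.74%) without the array. Outside genes but within 100000 bases it was 17 of 682 (2.49%) against 1.12%, and 1.06% without the array. Beyond that distance it was 4 of 177 (2.26%) against 3.94%.

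Factor motifs were searched on both strands of the 17 promoter windows with a YSM-listed peak, 10 of which are array windows that share sequence with other genes' windows. The PU.1 motif GAGGAAGT was in 1, that of Olfm4, and in 3.20% of all windows. The AP-1 motif TGACTCA, the RUNX motif TGTGGTT and the Krüppel-like factor motif GGGTGTGG were in none, and in 5.20%, 5.27% and 3.56% of all windows. The C/EBP motif TTGCGCAA and the single nuclear receptor repeat AGGTCA were in none, and in 0.183% and 16.3%. The Rarb window is 1 of the 17, and a search for AGGTCA does not find the GTTCAC repeats of its response element. Such matches of letters say nothing of factors bound elsewhere.

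Marker genes were checked over the whole genome, by the merged peaks within 1000 bases of each gene's interval. All 12 macrophage and microglia marker genes checked had merged peaks (1 to 10 each), none of them listed. Of 17 markers of other cell types 9 had them (0 to 15 each), and those at 0 included Snap25, Syt1, Aqp4, Cldn5, Cd3e, S100a8 and Ly6g. Mbp, of oligodendrocytes, had 15 merged peaks, more than any macrophage marker, and 1 of them was YSM-listed. The neuronal Rbfox3 had 7, the endothelial Pecam1 6 and the astrocyte gene Aldh1l1 5, none listed. Over the genome 1.48% of merged peaks were YSM-listed, and peaks as few as those of the macrophage markers would often hold none. The part of other cell types in the chromosome 14 counts was not tested.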

How the data were processed

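Paired-end ATAC-seq was made by the authors from 4 mouse libraries. Per the submitters' processing notes the tools were Trimmomatic 0.39, Bowtie2 2.2.5, Picard and HOMER, on mm10. Per the file headers, peaks of the 4 libraries were joined with HOMER's mergePeaks. The score column of the 3 deposited lists is not a measurement and was not used. The thresholds of the lists, and how deeply each library was sequenced, were not given in the sources used here.

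Members are all merged intervals on chromosome 14. A peak was listed where its coordinates matched a listed interval exactly (1212 of 1212 did, 0 in both lists). It was given to the nearest protein-coding gene within 100000 bp of its centre, or the shortest gene holding the centre, from RefSeq for GRCm38.p6; 1092 chromosome 14 genes matched a promoter window. Intervals with 1 subpeak (15127) were all 201 bp wide. Genes named were those with at least 2 YSM-listed peaks, an MDM-listed peak or a place in a gene list, and others named were chosen after their values were seen. The chromosome, the gene lists and the array were chosen with earlier results of these data known. No test was made. Shares have exact Clopper-Pearson intervals (SciPy 1.17.1). Counting was tested on simulated peaks. Some items are not reported here.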

Additional observations from a re-analysis of the deposited data

How the results depend on the processing

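Of 50 alternatives, 40 planned and 10 added after seeing the data, 39 gave values close to those reported, 11 moved a value and 0 reversed one. The YSM-listed share of 2.92% was 1.93% with YSM-listed peaks within 50000 bp counted once. It was 0.73% among peaks with at least 4 subpeaks, where its ratio to the other chromosomes was 1.01 and 1 bin had to be left out. That filter kept 11 YSM-listed peaks among 1507, and subpeak number depends on the same accessibility as the lists. Without the predicted-gene array the share was 2.2%, the ratio 1.55 and the number of bins 4. Without the array and Klf12 they were 1.84% and 1.3, and without the array, Klf12, Rarb and Fhit 1.64% and 1.15. The array was chosen after seeing its values, and nothing was left out of the other chromosomes in these comparisons. No paired analysis was possible because the files hold no values per library, and no library could be left out for the same reason. Depth per library is unknown here, so its bearing on subpeak number was not tested.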
